A study of Caenorhabditis elegans with 6 samples.

Results

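The cyp-13A gene cluster of Caenorhabditis elegans consists of 9 cytochrome P450 genes, cyp-13A1 to cyp-13A8 and cyp-13A10, taken by name from the 46926 genes of the deposited gene table. The genes were proposed for description with their levels in these libraries known, so their difference between treatments is given as a description and without a test. RNA came from whole animals of the wild-type strain N2, grown to late L4 or young adult on OP50, the usual Escherichia coli food. For 5 h they were rotated in tubes of NGM buffer with heat-treated OP50 and either 25 µM chaetocin, a toxin of fungal origin used to block histone lysine methyltransferases, or its solvent DMSO alone. Each treatment has 3 libraries, labelled as biological replicates 1 to 3; the labels do not state how they were grown apart, and the p-values below therefore reflect scatter among these libraries, which may be technical.

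Cytochrome P450 enzymes bind haem and use oxygen and electrons from a reductase to oxidise lipophilic compounds, often as the first step of drug and toxin breakdown. Worms have many such genes, and those that act on foreign compounds are largely expressed in the intestine. The CYP13A proteins are often compared with the human CYP3A drug-metabolising enzymes, and cyp-13A7 is known as a gene induced by the drug rifampicin.

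The 9 genes lie on chromosome II of the build WBcel235 (positions from the Ensembl annotation, release 115). Of these, 8 form a run of 28.4 kb, in the order cyp-13A1 (9779181 to 9781997), cyp-13A2 (9783384 to 9787629), cyp-13A3 (9788797 to 9793297), cyp-13A4 (9795756 to 9797740), cyp-13A5 (9798277 to 9800362), cyp-13A6 (9800758 to 9802821), cyp-13A7 (9803620 to 9805513) and cyp-13A8 (9805600 to 9807569). cyp-13A10 (9660839 to 9662884) stands apart from this run by 116296 bp. On the minus strand are 8 of the 9, and cyp-13A7 is the one on the plus strand. The gene models are alike in size: each codes for between 509 and 520 amino acids, in 5 to 10 exons, with spliced lengths of 1594 to 2258 bp. Gaps between neighbours in the run are between 86 and 2458 bp. One annotated noncoding RNA, T10B9.13, overlaps cyp-13A6 on the opposite strand; it was listed at 0 in the 6 libraries.

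Levels below are FPKM, fragments scaled by the authors for transcript length and library size, deposited with 2 decimals and scaled here again between libraries. They are per length and so can be compared between genes. In DMSO the cluster was low. cyp-13A2 had the highest level of the 9 at 1.29 ± 0.0734 FPKM (mean ± SD, n = 3), followed by cyp-13A5 at 0.766 ± 0.135, cyp-13A10 at 0.493 ± 0.180 and cyp-13A1 at 0.352 ± 0.0269. The other 5 genes had means between 0.0233 and 0.219 FPKM. In that order cyp-13A2 was above cyp-13A5 in every library, and cyp-13A1 above cyp-13A3. The ranges of the remaining neighbouring ranks overlapped, so their order is not settled by 3 libraries.

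After chaetocin the order of the levels was different. cyp-13A5 at 7.09 ± 0.308 FPKM and cyp-13A3 at 6.41 ± 0.498 came first, and their ranges overlapped. cyp-13A6 followed at 2.99 ± 0.133 and cyp-13A2 at 2.76 ± 0.0731, each separated from the next gene in every library. cyp-13A4, cyp-13A8, cyp-13A10 and cyp-13A7, with means between 0.565 and 0.884 FPKM, overlapped from each rank to the next. cyp-13A1 was last at 0.230 ± 0.0939. Ranked among all 74 genes named cyp in the table, cyp-13A3 went from place 54 in DMSO to place 24, cyp-13A5 from 44 to 21 and cyp-13A6 from 59 to 34. cyp-13A4, cyp-13A8 and cyp-13A7 went from places 66, 68 and 71 to 48, 49 and 54, and cyp-13A2 stood at 38 and 37. The 2 others went down the ranking, cyp-13A1 from 49 to 63 and cyp-13A10 from 46 to 51.

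**Figure D1:**
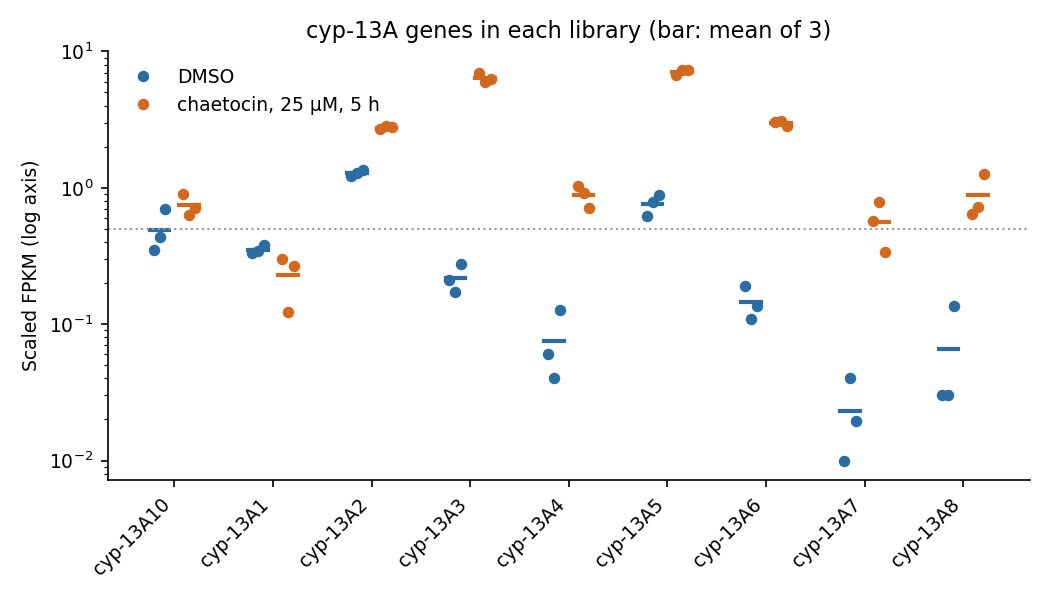
Scaled FPKM of the 9 cyp-13A genes in chromosome order, on a log axis, with one point per library and a bar at the mean of the 3 DMSO (blue) or 3 chaetocin (orange) libraries; the dotted line is the filter of 0.5 FPKM. From cyp-13A2 to cyp-13A8 the chaetocin points lie above the DMSO points, for cyp-13A10 the groups overlap, and for cyp-13A1 the chaetocin points lie below.

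The filter for the fit across all genes asked for at least 0.5 FPKM in at least 3 libraries. It was passed by 7 of the 9 genes, and cyp-13A1 and cyp-13A7 missed it. cyp-13A3, cyp-13A4, cyp-13A6 and cyp-13A8 passed it through the chaetocin libraries alone. cyp-13A10 reached 0.5 FPKM in 1 DMSO library and in all 3 chaetocin libraries. Of the 7, 6 were past the threshold as higher with chaetocin and 0 as lower (limma, Benjamini-Hochberg adjusted p under 0.05 over 15213 genes), where 5.47% of all genes tested were called higher and 3.02% lower, 8.49% in all. Libraries of the treatments did not overlap in the same 6 genes, against 14.0% of tested genes wholly higher. Since the genes were chosen with these values known, nothing is read from either count. The median log2 difference of the 7 genes was 2.57, beside -0.0039 for all genes tested. The former depends on the constant added before the log: it was 0.81 with 1 FPKM and 3.49 with 0.01 FPKM in place of 0.1, and 3.36 over the 4 genes above a filter of 1 FPKM.

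Within the run, the 6 adjacent genes from cyp-13A3 to cyp-13A8 had ratios of chaetocin to DMSO means between 9.26 and 29.3. cyp-13A3 measured 0.211, 0.171 and 0.274 FPKM across the DMSO replicates, in the order 1 to 3, and 6.96, 5.99 and 6.28 under chaetocin. The ratio of means was 29.3, and the log2 difference, on the log2(FPKM + 0.1) scale that understates changes of low genes, was 4.36 ± 0.18 (SE). Every chaetocin library was far above every DMSO library, and the 3 values within a treatment lay close together.

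cyp-13A6 measured 0.191, 0.11 and 0.137 FPKM across the DMSO replicates and 3.04, 3.09 and 2.84 across the chaetocin replicates, a ratio of 20.5 and a log2 difference of 3.66 ± 0.21. cyp-13A5 stood at 0.623, 0.783 and 0.892 FPKM against 6.73, 7.26 and 7.27, a ratio of 9.26 and a log2 difference of 3.06 ± 0.15. In both the treatments were clearly separated. cyp-13A5 differs from the other 5 in starting from a level above the filter in all 3 DMSO libraries, and with chaetocin it came to a level like that of cyp-13A3.

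cyp-13A4 measured 0.0603, 0.0401 and 0.127 FPKM across the DMSO replicates and 1.03, 0.912 and 0.715 under chaetocin, 11.7 times the DMSO mean (log2 difference 2.50 ± 0.31). cyp-13A8 stood at 0.0301, 0.0301 and 0.137 FPKM against 0.637, 0.727 and 1.27, a ratio of 13.4 and a log2 difference of 2.57 ± 0.40. These genes were low in both treatments, and their libraries varied more relative to the mean: DMSO replicate 3 was the highest DMSO library of both, and chaetocin replicate 3 was the highest chaetocin library of cyp-13A8 and the lowest of cyp-13A4. cyp-13A7, the rifampicin-induced gene, stood at 0.01, 0.0401 and 0.0196 FPKM against 0.568, 0.789 and 0.338. Its ratio of means was 24.3, but its DMSO values are of the size of the last of the 2 decimals in the deposited table, so this ratio is imprecise.

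The genes at the left of the run, and the distant cyp-13A10, had smaller or opposite differences. cyp-13A2, the highest of the 9 in DMSO, measured 1.22, 1.29 and 1.36 FPKM across the DMSO replicates and 2.68, 2.82 and 2.79 under chaetocin, a ratio of 2.14 and a log2 difference of 1.04 ± 0.12. The ratio was smaller than the 29.3 of its neighbour cyp-13A3, and the groups were again separate. cyp-13A1 measured 0.331, 0.341 and 0.382 FPKM across the DMSO replicates and 0.299, 0.123 and 0.268 under chaetocin, so that DMSO was 1.53 times the chaetocin mean. The chaetocin libraries of cyp-13A1 lay below the DMSO libraries, with 0.299 just under the lowest DMSO value of 0.331, and the gene was below the filter. The distant cyp-13A10 measured 0.351, 0.432 and 0.696 FPKM across the DMSO replicates and 0.896, 0.635 and 0.715 under chaetocin, a log2 difference of 0.55 ± 0.29, and its groups overlapped.

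The authors' deposited table, which compares the same libraries from normalized counts, gives the differences on a log2 scale without the added 0.1 FPKM used here. With its sign turned to chaetocin over DMSO, the authors' deposited table lists 4.89 ± 0.30 (SE) for cyp-13A3, 4.35 ± 0.31 for cyp-13A6, 3.22 ± 0.19 for cyp-13A5 and 1.10 ± 0.16 for cyp-13A2. For the genes of lowest mean level in DMSO the authors' deposited table lists 4.46 ± 0.79 for cyp-13A7, 3.86 ± 0.58 for cyp-13A8 and 3.61 ± 0.55 for cyp-13A4. For cyp-13A1 and cyp-13A10 the authors' deposited table lists -0.61 ± 0.46 and 0.62 ± 0.30. The same 6 genes from cyp-13A3 to cyp-13A8 thus have the larger values in both sources. In the authors' deposited table the standard errors were largest for cyp-13A7, cyp-13A8 and cyp-13A4. The mean normalized count in the authors' deposited table was 15.1 for cyp-13A7, 22.2 for cyp-13A1 and between 26.7 and 236 for the other 7, so few fragments stand behind the lowest genes.

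**Figure D2:**
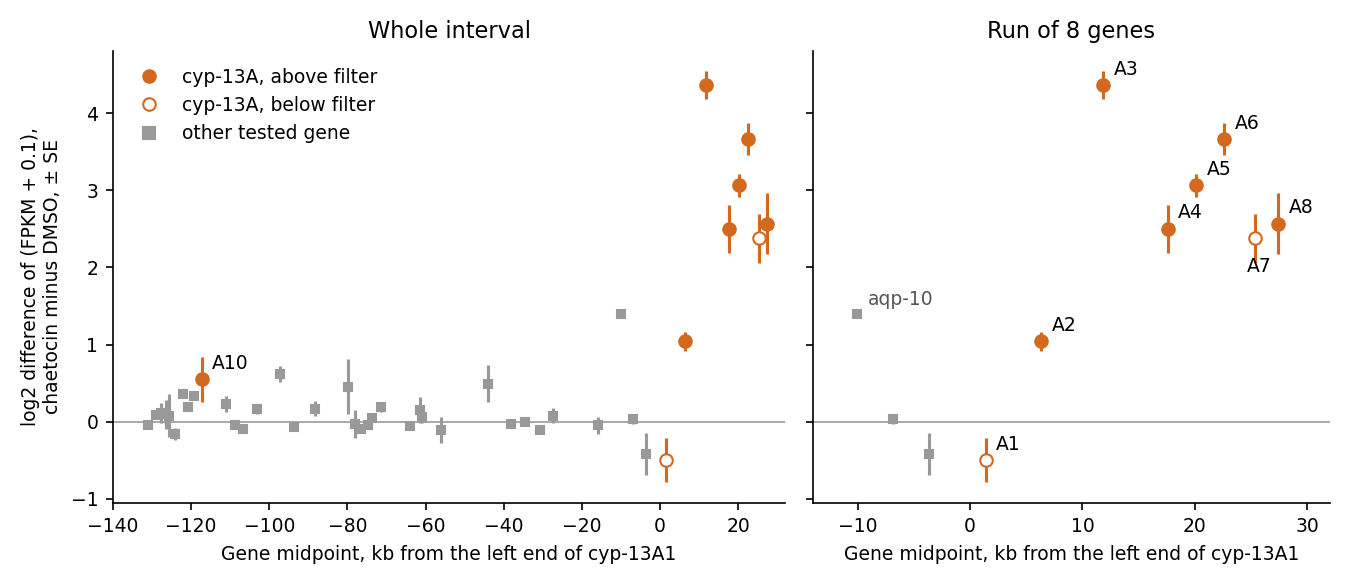
The log2 difference of (FPKM + 0.1), chaetocin minus DMSO with its standard error, against the distance in kb of each gene's midpoint from the left end of cyp-13A1, over the whole interval (left) and around the run of 8 genes (right). Orange circles are cyp-13A genes, open where the gene missed the filter, and grey squares are the other 35 tested genes; the values from cyp-13A3 to cyp-13A8 stand above 2, those of cyp-13A2, cyp-13A1 and cyp-13A10 lower, and aqp-10 is the highest of the grey squares.

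Summed over the 9 genes, the cluster had 3.02, 3.24 and 4.03 FPKM across the DMSO replicates and 22.8, 22.4 and 22.5 under chaetocin, 6.58 times as much. The sum is useful because RSEM, the tool named in the submitters' processing notes, divides fragments that match several genes by estimation, and fragments divided among these related genes remain in it. The 6 genes from cyp-13A3 to cyp-13A8 made up 37.6% ± 1.64 of the sum in DMSO and 83.4% ± 0.516 with chaetocin (SD, n = 3), and their own sum was 14.5 times the DMSO level.

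The make-up of the sum differed as well. cyp-13A2 held 38.0% ± 3.61 of it in DMSO and 12.3% ± 0.458 with chaetocin. cyp-13A3 held 6.35% ± 0.946 and 28.4% ± 1.89, and cyp-13A5 22.3% ± 1.78 and 31.4% ± 1.69. cyp-13A2 was thus the leading transcript of the cluster in DMSO, and cyp-13A5 and cyp-13A3 were the leading ones after chaetocin. The share of cyp-13A10 was 14.1% ± 2.90 and 3.32% ± 0.554, and that of cyp-13A1 10.3% ± 0.757 and 1.02% ± 0.409. cyp-13A2 and cyp-13A10 thus held smaller shares with chaetocin although their mean levels were higher.

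**Figure D3:**
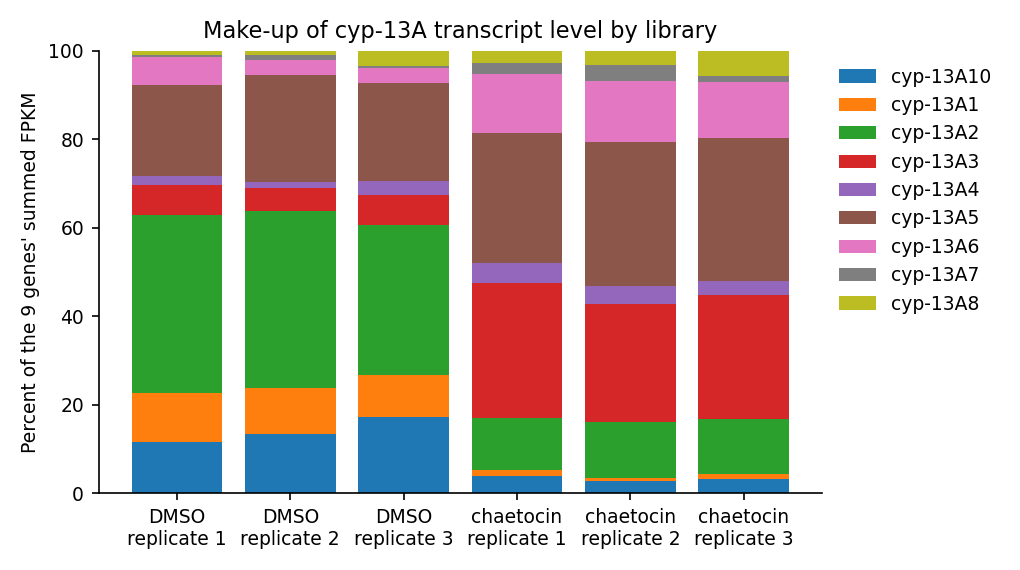
Share of each cyp-13A gene in the summed FPKM of the 9 genes, in percent, as a stacked bar for each of the 6 libraries, in chromosome order from the bottom. The green part (cyp-13A2) takes 33.8 to 40.2% of the DMSO bars and 11.7 to 12.6% of the chaetocin bars, and the red part (cyp-13A3) 5.26 to 6.98% and 26.8 to 30.5%.

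Genes on the same stretch of chromosome II were tested next, from 20 kb left of cyp-13A10 to 20 kb right of cyp-13A8. Of 50 such genes 35 were above the filter, and 4 rose and 0 fell with chaetocin (limma, adjusted p under 0.05), beside 5.47% and 3.02% of all genes. Before adjustment, 8 of the 35 were higher and 1 was lower at p under 0.05. The share of all genes at that unadjusted threshold is not given here, so nothing is read from these unadjusted counts. aqp-10, an aquaporin-family channel gene 9.33 kb left of cyp-13A1, rose from 33.4 ± 2.09 to 88.3 ± 2.01 FPKM (log2 difference 1.40 ± 0.05, limma adjusted p = 1.504e-05). The other 3 flank cyp-13A10: gstk-1, named as a kappa-class glutathione S-transferase and 3.12 kb away, rose from 45.2 ± 0.756 to 58.1 ± 0.811 FPKM, ZK1320.3 at 0.42 kb from 163 ± 4.54 to 206 ± 9.25, and ZK1320.13 at 17.91 kb from 56.7 ± 8.20 to 86.4 ± 5.42 (limma adjusted p = 0.0007612, 0.003537 and 0.01283). Directly left of cyp-13A1, ZK1321.4 had 105 ± 6.34 and 107 ± 5.60 FPKM and T10B9.9 2.07 ± 0.271 and 1.58 ± 0.586 (limma adjusted p = 0.8241 and 0.4506). The ZK1320.13 call was lost with the replicate number as a block and without DMSO replicate 1 or chaetocin replicate 1 or 2 (adjusted p up to 0.0614). The 35 genes had a median log2 difference of 0.06 and a range of -0.42 to 1.40. Only 3 of them lay wholly within 20 kb of the run, and 1 of the 3, aqp-10, was called. The median thus says little about the nearest neighbours of the run. Only genes lying wholly within the interval were taken, and none of the 50 lay to the right of the run, so that side was not examined.

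The filter left out neighbours of low level, as it would have left out cyp-13A3, cyp-13A4, cyp-13A6, cyp-13A8 and cyp-13A10 but for their chaetocin libraries. One of these neighbours, the protein-coding gene ZK1321.1, 24.26 kb left of cyp-13A1, measured 0, 0.0803 and 0 FPKM across the DMSO replicates and 0.369, 0.768 and 0.566 under chaetocin. Its treatments did not overlap, and with no filter it was called higher (log2 difference 2.41, limma adjusted p = 0.0122). With no filter 6 of 39 tested neighbours were called higher, in place of 4 of 35. The share of all genes called with no filter is not given here, so nothing is read from this count. The other addition was a pseudogene within the run.

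This pseudogene, placed by the annotation between cyp-13A3 and cyp-13A4, is WBGene00014838 (9793754 to 9795541, minus strand). It measured 0, 0.0201 and 0.0490 FPKM across the DMSO replicates and 0.239, 0.246 and 0.228 under chaetocin. Its chaetocin values were all above its DMSO values, at a level under the filter (log2 difference 1.48 and limma adjusted p = 0.0159 with no filter). Whether these fragments came from the pseudogene or were assigned to it from a neighbouring gene was not tested.

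Next came the closest relatives by name outside the cluster. Of cyp-13A11, cyp-13A12, cyp-13B1 and cyp-13B2, which lie on chromosomes III and X, 2 were above the filter. In the limma fit 0 of the 2 were called (0 also before adjustment at 0.05), beside 5.47% of all genes higher and 3.02% lower. With only 2 genes tested, nothing is read from this count. cyp-13B2 had 2.72 ± 0.0755 FPKM with DMSO and 2.43 ± 0.132 with chaetocin (log2 difference -0.15 ± 0.11, limma adjusted p = 0.4968), and cyp-13B1 1.56 ± 0.251 and 1.43 ± 0.441 (-0.16 ± 0.26, limma adjusted p = 0.7849). cyp-13A12, a gene known from studies of reoxygenation after hypoxia, stood at 0.130 ± 0.0102 and 0.131 ± 0.0537 FPKM, and cyp-13A11 at 0.170 ± 0.0735 and 0.208 ± 0.0813. Both of these were below the filter, with overlapping treatments.

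Among the 65 other genes named cyp, 48 were tested, and 14 rose and 8 fell, with a median log2 difference of 0.05. Of all genes tested, 5.47% rose and 3.02% fell. The 4 increases with the smallest limma adjusted p were in the cyp-33C subfamily. cyp-33C5 rose from 1.52 ± 0.370 to 64.1 ± 3.07 FPKM and cyp-33C4 from 3.31 ± 0.356 to 27.5 ± 0.473 (limma adjusted p = 7.326e-06 for both). cyp-33C7 and cyp-33C1 had log2 differences of 3.72 ± 0.12 and 5.68 ± 0.31. Of the cyp-33C genes 7 of 9 tested rose, with a median log2 difference of 3.72. Among the decreases were cyp-34A9 (38.6 ± 1.12 to 15.5 ± 0.212 FPKM), cyp-37A1 (23.2 ± 0.836 to 17.4 ± 0.943), cyp-33B1 (1.19 ± 0.105 to 0.368 ± 0.0784) and cyp-25A1 (11.2 ± 0.640 to 7.48 ± 0.878), with limma adjusted p of 9.449e-06, 0.005376, 0.007195 and 0.01526. P450 genes thus went in both directions. The number that fell was 4 with the replicate number as a block, 3 without DMSO replicate 1 and 4 without DMSO replicate 2, and 5 without chaetocin replicate 1. The cyp-25A1 call was lost with the block and without DMSO replicate 1 or 2 (adjusted p up to 0.0738).

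**Figure D4:**
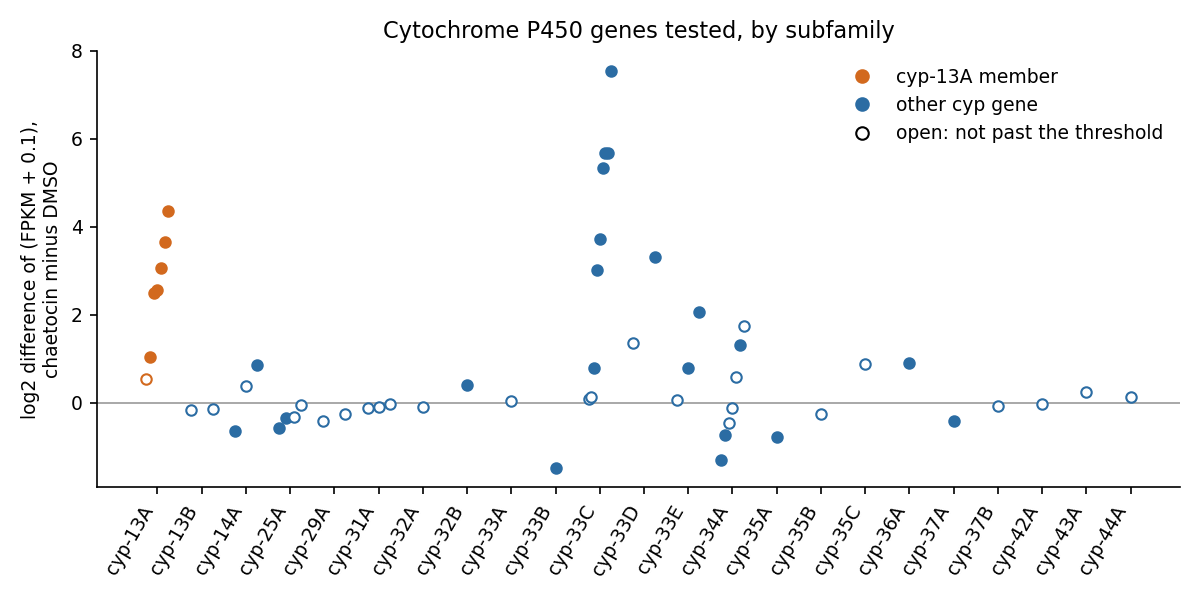
The log2 difference of (FPKM + 0.1), chaetocin minus DMSO, of each tested cytochrome P450 gene, grouped by subfamily, with cyp-13A members in orange and other genes in blue. Filled points are past the threshold of adjusted p under 0.05 (limma) and open points are not; the cyp-13A points lie between 0.55 and 4.36, and the cyp-33C points reach 7.55.

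Microsomal P450 enzymes need electrons and haem, so a list of genes for both was examined in the same fit. Of 14 tested genes of this list 6 rose and 0 fell (limma, adjusted p under 0.05; 7 and 0 before adjustment), with a median log2 difference of 0.46. The shares over all genes tested were 5.47% and 3.02% after adjustment, and those before adjustment are not given here. emb-8, which encodes the NADPH-cytochrome P450 reductase that passes electrons to P450 enzymes, measured 62.8, 65.1 and 55.2 FPKM across the DMSO replicates and 89.2, 90.5 and 93.5 under chaetocin. This is a log2 difference of 0.58 ± 0.06 (limma adjusted p = 0.001934), and the treatments did not overlap. cytb-5.1, a cytochrome b5 gene whose product can also donate electrons, rose from 136 ± 10.5 to 267 ± 9.99 FPKM (0.98 ± 0.06, limma adjusted p = 0.0001171). vem-1, a gene of the membrane-associated progesterone receptor family, whose mammalian relative binds haem and P450 enzymes, rose from 35.8 ± 3.04 to 97.5 ± 1.70 FPKM (1.45 ± 0.06, limma adjusted p = 2.901e-05).

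The other cytochrome b5 gene and a gene of the cytochrome b5 reductase family missed the threshold. cytb-5.2 had 277 ± 3.57 FPKM with DMSO and 278 ± 8.62 with chaetocin (limma adjusted p = 0.9426). hpo-19, a gene of the cytochrome b5 reductase family, had 175 ± 7.15 and 177 ± 1.33 FPKM (limma adjusted p = 0.8223). Their log2 differences were 0.01 ± 0.03 and 0.02 ± 0.04. T05H4.4, another tested gene of this list, had 0.74 ± 0.12 and 1.10 ± 0.52 FPKM and also missed the threshold. Its log2 difference was 0.43 ± 0.35 (limma adjusted p = 0.5655).

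Of the haem genes, hrg-7, which encodes a secreted protease-like protein that signals haem status between tissues, went from 47.5, 49.3 and 50.7 FPKM to 243, 250.2 and 251. Its log2 difference was 2.33 ± 0.04 (limma adjusted p = 8.921e-07), and the spread within either treatment was small beside it. hrg-3, a secreted haem carrier gene, rose from 2.64 ± 0.518 to 5.89 ± 0.958 FPKM (limma adjusted p = 0.01126), and hrg-4, an intestinal haem importer gene, from 8.57 ± 1.28 to 12.3 ± 0.281 (limma adjusted p = 0.03784). The hrg-4 call was lost with no filter, with a replicate block, without DMSO replicate 1 and without any of the chaetocin replicates (adjusted p up to 0.119). The haem transporter gene hrg-1 had 25.0 ± 1.16 and 25.7 ± 1.43 FPKM, and the haem exporter gene mrp-5 29.8 ± 1.64 and 29.9 ± 1.58 (limma adjusted p = 0.7869 and 0.9859). Of 8 haem genes tested, 3 rose and 5 did not pass.

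**Figure D5:**
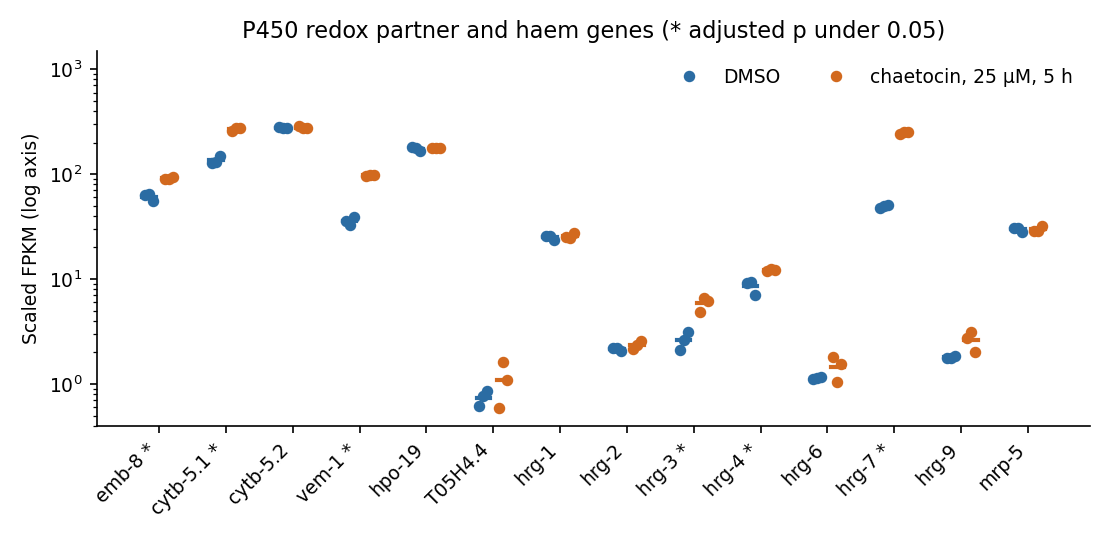
Scaled FPKM of the 14 tested redox partner and haem genes on a log axis, one point per library with a bar at the mean of 3, DMSO in blue and chaetocin in orange. Asterisks mark the 6 genes past the threshold; hrg-7 goes from a mean of 49.2 to 248 FPKM, while hrg-1, mrp-5 and cytb-5.2 lie level.

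Transcription regulators linked to xenobiotic and intestinal responses were examined in the same fit, at the level of their own RNA. Of 18 tested, 1 rose and 0 fell in the limma test, beside 5.47% and 3.02% of all genes, so the count is near the background and is no result about these genes. At an unadjusted p under 0.05, 1 was higher and 5 were lower, and the share of all genes at that threshold is not given here. The gene that rose was nhr-8, a nuclear receptor gene known for its part in xenobiotic resistance, with 12.7 ± 0.235 FPKM in DMSO and 15.0 ± 0.517 with chaetocin (log2 difference 0.24 ± 0.05, limma adjusted p = 0.04132). The nhr-8 call was lost with no filter, on unscaled FPKM, with a replicate block and without any 1 of the 6 libraries (adjusted p up to 0.152). elt-2, the GATA factor of the intestine, had 11.1 ± 0.182 and 10.4 ± 0.213 FPKM (limma adjusted p = 0.3987), and skn-1, the oxidative stress regulator, 78.6 ± 5.05 and 74.5 ± 1.62 (limma adjusted p = 0.488). The 18 log2 differences lay between -0.27 and 0.24. Without DMSO replicate 3, the coactivator gene mdt-15 and the insulin-pathway factor daf-16 were called lower (adjusted p = 0.0186 and 0.0195).

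In whole animals, a difference in RNA per cell and a difference in the share of a tissue cannot be told apart. Markers of muscle, pharynx, neurons, hypodermis, germ line, sperm, oocytes and yolk were detected, as the label of whole animals implies, and no marker was at 0. Of 5 intestinal markers 3 rose: ges-1 from 38.5 ± 1.25 to 46.7 ± 0.327 FPKM, ifb-2 from 117 ± 2.82 to 148 ± 3.40 and the brush border actin act-5 from 60.8 ± 6.94 to 244 ± 4.18 (limma adjusted p = 0.004853, 0.001077 and 1.764e-05). The other 2 did not pass, and their means were lower with chaetocin: elt-2 as given above, and vha-6 with 74.1 ± 4.95 and 67.4 ± 2.99 FPKM (limma adjusted p = 0.2628). The list summed to 298 to 303 FPKM in the DMSO and 508 to 527 in the chaetocin libraries, and act-5 made up most of that increase. Of 3 yolk genes, which the intestine makes, vit-5 fell from 2517 ± 301 to 1852 ± 49.1 FPKM (limma adjusted p = 0.02569), and the list summed to 11730 to 14500 and 10330 to 11080 FPKM. The part of these shifts in the cyp-13A values was not tested. Markers of the other 7 tissues had 0 calls of 17 tested genes (limma), beside 8.49% of all genes tested. With 17 genes, nothing is read from this count, and a change in these tissues is not excluded. At an unadjusted p under 0.05, 2 were lower and 0 higher. These were the hypodermal marker rol-6, with means of 1.81 and 0.407 FPKM, and the neuronal marker rab-3. Their log2 differences were -2.05 ± 0.57 and -0.22 ± 0.07 (limma adjusted p = 0.08561 and 0.1423).

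Genes whose profile over the 6 libraries came closest to that of the cluster were looked for with 2 of its members. Likeness was the root mean square difference of log2(FPKM + 0.1), each gene first centred on its DMSO mean, so it follows the size of the treatment difference and the scatter of single libraries. For cyp-13A5, the member of highest mean level, the 5 closest genes outside the cluster were cyp-33C4 (0.0647), F12E12.11 (0.0740), Y75B8A.28 (0.0742), the enoyl-CoA hydratase family gene ech-9 (0.108) and M02H5.8 (0.123). All 5 were highest in replicate 3 among the DMSO libraries, as cyp-13A5 and 40.0% of all genes tested were. The likeness takes in the scatter among DMSO libraries, so nothing is read from this. For cyp-13A3, the member with the largest log2 difference, they were C28C12.4 (0.130), C06E4.6 (0.180), T16G1.6 (0.231), the C-type lectin gene clec-4 (0.242) and K12D9.1 (0.309). Other members were farther off on this scale: cyp-13A4 was the nearest of them to cyp-13A5 at 0.463, with 53 genes outside the cluster nearer. The nearest to cyp-13A3 was cyp-13A6 at 0.526, with 18 nearer. These distances depend on the added 0.1 FPKM, which was above the DMSO means of cyp-13A4 and cyp-13A8 (0.0759 and 0.0658). Their ratios of means were 11.7 and 13.4, beside 9.26 for cyp-13A5. Both rest on DMSO values of 0.0301 to 0.137 FPKM, deposited with 2 decimals, so their order against cyp-13A5 is not settled.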

How the data were processed

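The authors deposited FPKM per gene and per transcript for the 6 libraries, and a table of their own comparison of DMSO over chaetocin with a log2 fold change and the matching standard error (log2), a p-value read as adjusted (not used here) and a mean normalized count, an abundance signal. Per the submitters' processing notes, the tools included RSEM 1.3.1, STAR 2.7.9a, Trimmomatic 0.36, MultiQC and FastQC 0.11.4, with WBcel235 as build; the annotation release, and whether counting used strand, are not given in the sources used here. The values were read as FPKM because library columns sum to between 1232966 and 1326067, and because the log2 ratio of mean normalized count to FPKM followed the log2 length of the transcript (Pearson r = 0.919 over 14336 genes, no independent replicates). Depth per library is unknown, so no counting interval is given. Fragments shared by near-identical genes are divided by estimation, which leaves single cyp-13A levels uncertain.

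Scaling between libraries used trimmed means of log ratios without weights (30% of ratios and 5% of means trimmed at each end, factors 0.976 to 1.02). Genes with at least 0.5 FPKM in 3 libraries, 15213 of 46926, were put as log2(FPKM + 0.1) into limma 3.58.1 (R 4.3.3), with variance moderation along the mean and 2-sided p-values adjusted by the Benjamini-Hochberg method over all genes tested, threshold 0.05. Alternatives were a pseudocount of 1 or 0.01, no filter, a filter of 1 FPKM, no scaling, the replicate number as a block, and leaving out each library with the tested genes kept. The functions were tested on simulated data. All 46926 gene IDs were found in the Ensembl annotation.

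Members, lists and tests were chosen with earlier results of these data known. Named genes were the members, the 5 genes most like each of 2 members, up to 4 called genes of smallest adjusted p per list (per direction for P450 genes), every gene of lists of up to 5 and every called flanking gene. Others (ZK1321.4, T10B9.9, WBGene00014838, ZK1321.1, cytb-5.2, hpo-19, T05H4.4, hrg-1, mrp-5, hrg-3, hrg-4, elt-2, skn-1, mdt-15, daf-16 and the markers) were named after their values were seen. Planned promoter motif counts and protein identities were not analysed here.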

Additional observations from a re-analysis of the deposited data

How the results depend on the processing

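The 6 cyp-13A genes called higher numbered between 4 of 4 tested (filter of 1 FPKM) and 7 of 9 (no filter, which adds cyp-13A7), and 6 under each other alternative. Of the 4, cyp-13A3, cyp-13A5 and cyp-13A6 passed the filter of 1 FPKM through the chaetocin libraries alone. The share of all genes called under these alternatives is not given here, and nothing is read from these counts. The median log2 difference, 2.57, was 0.81 with a pseudocount of 1, 3.49 with one of 0.01 and 3.36 with a filter of 1 FPKM, and 2.42 to 2.85 when 1 library was left out. The mean log2 difference, 2.54, was 1.31, 3.05 and 3.03 under the same alternatives and 2.18 with no filter. The pseudocount is near or above the levels of the lowest genes, so it sets much of these values; the cause of other shifts was not tested. The summed level, 6.58-fold, was 6.21 to 7.20 without 1 library, the highest without DMSO replicate 3. With 1 library left out, P450 genes that fell numbered 3 to 6, regulators that rose 0 and that fell 0 to 2, and neighbours that fell 0 to 1 (nos-3, without DMSO replicate 3). Regulators that rose also numbered 0 with no filter and on unscaled FPKM. Whether the numbers shared by replicates pair the libraries was not settled. Same-numbered libraries had correlations of 0.106, 0.0668 and -0.0264 in their deviations from the group means, and not every library matched its own number best. In the deposited column names, DMSO replicates 1 to 3 are NA1, NA3 and NA4, and chaetocin replicates 1 to 3 are NB1, NB2 and NB3. The replicate numbers used here thus differ from the column numbers in DMSO. With the replicate block, P450 genes that fell numbered 4 and regulators that rose 0, and the cyp-13A calls numbered 6. Of 33 called genes outside the cluster, the block lost 7 and single left-out libraries 3 to 8.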

Other observations

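Within the DMSO group, replicate 3 held the highest value for 7 of the 9 cyp-13A genes, the exceptions being cyp-13A6 (highest in replicate 1) and cyp-13A7 (highest in replicate 2). Of all genes tested 40.0% were highest in that library, and so were 9 of the 14 other P450 genes that rose with chaetocin. In the summed cluster level this library had 4.03 FPKM beside 3.02 and 3.24 in the other DMSO libraries, and without it the ratio to the chaetocin libraries was 7.20 in place of 6.58. The chaetocin libraries agreed more closely in the sum, 22.4 to 22.8 FPKM, although single members differed in which library was highest.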
